A study of Homo sapiens with 18 samples.

Results

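RAD21 was silenced for 24 h, without activation of MycER, in U2OS-MycER cells, and 2 siRAD21 libraries were compared with 2 siCtrl libraries of the same time. These 4 of the 18 RNA-seq libraries of the series were taken by their labels, not by any measured value. U2OS is a human osteosarcoma cell line. The cells carry MycER, a fusion of Myc with the hormone-binding part of the estrogen receptor, introduced with a retrovirus, and the siCtrl cells carry it too. MycER is inactive until 4-hydroxytamoxifen (OHT) is added, so its transgene was present but not switched on in the 4 libraries. The siRAD21 cells had received a commercial pool of siRNAs against RAD21, and the siCtrl cells siRNA against Renilla luciferase, a gene that human cells lack. Ethanol, the solvent of OHT, was added to all 4. For comparison, 4 libraries come from the same siRNAs with 400 nM OHT at 24 h (siRAD21 OHT and siCtrl OHT), and 5 from siRAD21 and siCtrl cells at 48 h without OHT. Each arm rests on 1 siRNA reagent, so an effect of losing RAD21 and an effect of the siRNA sequences themselves cannot be told apart.

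Cohesin is a ring of SMC1A, SMC3, RAD21 and STAG1 or STAG2 that embraces DNA. It holds sister chromatids together from S phase until mitosis, and in interphase it extrudes chromatin loops that stop at sites bound by CTCF. Loops shape which promoters an enhancer reaches, and cells without cohesin also fail to segregate chromosomes properly. The libraries at 24 h are the earlier of the time points sampled.

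The values are eRPKM, that is exonic reads normalized to exon length and to library size, for 23399 genes. Depth was 10941845 and 12678599 reads in the siCtrl libraries and 12312403 and 12614504 reads in the siRAD21 libraries. Because PCR duplicates were removed, few reads can start at any base, and the highest eRPKM of each of the 18 libraries lay between 137.9 and 174.2, which compresses differences of strongly expressed genes. The siCtrl pair differed more than the siRAD21 pair: the chi-square per gene of their reads was 3.19 and 1.03, where sampling noise alone gives about 1. Duplicate removal makes counts vary less than random sampling does, and with a noise term reduced to match, the value of the siRAD21 pair was 1.17. The pair thus differed slightly beyond noise and was kept as 2 libraries. By the same measure the siRAD21 pair with OHT at 48 h, which enters the spread that all groups share in the fit, had 1.01, about what noise alone gives. Of the osteoblast markers, SPARC, COL1A1, SPP1 and RUNX2 were expressed, while SP7, IBSP and COL1A2 were below 1 eRPKM in each of the 4 libraries. Of 17 markers of blood, endothelial, epithelial, liver, neural and muscle cells, 11 were below 1 eRPKM in all 4 libraries, and ALB, the albumin gene of liver, was at 0.

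RAD21 itself was measured at 72.2 and 69.3 eRPKM in the siCtrl libraries and at 18.1 and 18.6 eRPKM in the siRAD21 libraries. The groups were far apart, with means of 70.7 ± 2.04 and 18.4 ± 0.366 (SD, n = 2). The log2 fold change was -1.92 with a standard error of 0.05, a level 3.78-fold lower (limma, Benjamini-Hochberg adjusted p = 4.38e-11). This p and the others below come from 1 fit whose spread is estimated over all 18 libraries. Fitted with only the 2 groups compared, RAD21 had the same log2 fold change and a weaker p (limma, adjusted p = 0.000417). All fold changes here are on the scale of log2(eRPKM + 0.5), which understates changes of low genes. RAD21 reads in a siCtrl library filled 39.5% of the read starts that duplicate removal leaves, and with duplicates put back by calculation the log2 fold change was -2.20. The RNA is from bulk cells, so a lower level in every cell and a loss in part of the cells cannot be told apart.

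No other subunit of the ring was called, though SMC1A lay at the threshold. SMC1A, one of the ring's ATPases, was measured at 19.1 and 20.3 eRPKM in siCtrl and at 28.2 and 27.7 eRPKM in siRAD21 cells. Both siRAD21 libraries were above both siCtrl libraries, but the log2 fold change of 0.50 lay at the threshold of 0.5 and was not called (limma, adjusted p = 2.66e-05). It was called with a pseudocount of 0.1, quantile normalization, voom or duplicates put back and without siCtrl replicate 2 or siRAD21 replicate 2, and with OHT, where its log2 fold change was 0.56. SMC3, its partner ATPase, had 46.7 and 45.6 eRPKM in siCtrl and 46.1 and 44.5 eRPKM in siRAD21 cells, and the libraries overlapped. STAG1 and STAG2 had log2 fold changes of 0.13 and 0.08.

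None of the 13 regulators of cohesin passed both thresholds, against 8.43% of all genes tested, and their log2 fold changes ran from -0.39 to 0.33. The lowest was CTCF, which stops loop extrusion, at 40.4 and 39.3 eRPKM in siCtrl and 30.3 and 30.4 eRPKM in siRAD21 cells. Its libraries did not overlap, and the difference passed the adjusted p but not the fold threshold (log2 fold change -0.39, limma, adjusted p = 5.18e-05). WAPAL, which releases cohesin from chromatin, was also lower by less than the threshold, at -0.23. MAU2, part of the cohesin loader, had the highest value, from 7.54 and 7.85 eRPKM in siCtrl to 9.7 and 9.93 eRPKM in siRAD21 cells. NIPBL, its partner in the loader, had a log2 fold change of 0.11. The genes next to RAD21 on the chromosome were not called either. UTP23, EIF3H, RAD21-AS1 and AARD had log2 fold changes of -0.19, -0.12, -0.25 and 0.28. RAD21-AS1 and UTP23 share exonic bases with RAD21 on the other strand, and the libraries do not mark strand, so their reads cannot be fully separated from those of RAD21.

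**Figure D1:**
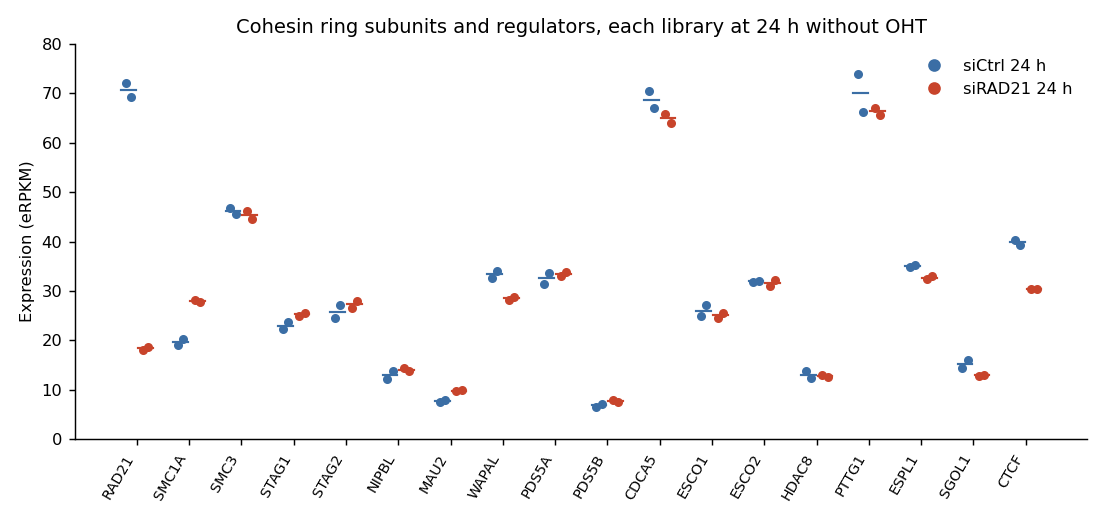
Expression in eRPKM of each cohesin ring subunit and regulator in the 2 siCtrl (blue) and 2 siRAD21 (red) libraries at 24 h; points are libraries and bars group means. RAD21 drops from 70.7 to 18.4 eRPKM on average, SMC1A is higher and CTCF lower in both siRAD21 libraries, and most of the others overlap or lie close together.

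Of 14993 genes with a mean of at least 1 eRPKM over the 18 libraries, 874 were called higher and 390 lower in siRAD21 than in siCtrl cells at 24 h. A gene was called when its adjusted p was below 0.05 and its log2 fold change past 0.5. This is 8.43% of the genes tested, 5.83% higher and 2.6% lower. Without the fold threshold 3870 genes had an adjusted p below 0.05, so most of the detectable differences were small. A log2 fold change past 1 was reached by 152 called genes that were higher and 66 that were lower, and past 2 by 8 and 6. With 2 libraries a group, the libraries of the groups did not overlap in 64.6% of all genes tested, called or not.

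The calls depended on how strongly a gene was expressed. Among genes with a mean of 1 to 5 eRPKM, 10.5% were called higher and 2.42% lower, while among genes of at least 50 eRPKM 0.435% were called higher and 0.87% lower. The median log2 fold change went from 0.12 in the lowest of these classes to -0.07 in the highest, although it was 0.002 over all genes. Forcing the same distribution on all libraries (quantile normalization) gave 680 higher and 546 lower genes, so that 55.5% and not 69.1% of the calls were higher. The called genes were mostly protein coding, 91.6% of those higher and 95.1% of those lower with a position in the annotation. Genes called lower had a median GC content of 44.8% in their longest transcript, genes called higher 50.2% and the genes not called 47.9%.

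The 12 largest falls included RAD21 itself. DRD1, the D1 dopamine receptor, was measured at 7.15 and 7.81 eRPKM in siCtrl and at 0.265 and 0.235 eRPKM in siRAD21 cells, the last being 11 and 10 reads. It was 10.6-fold lower (log2 fold change -3.41, SE 0.19, limma, adjusted p = 5.1e-08). ACKR3, a scavenging receptor for the chemokine CXCL12, went from 25.7 and 27.4 eRPKM to 5.15 and 5.92 eRPKM, which is 4.49-fold lower. SNAI2, the transcription factor Slug of mesenchymal cells, went from 12.5 and 12.7 eRPKM to 2.35 and 2.59 eRPKM, 4.41-fold lower. MN1, a transcriptional cofactor known from meningioma and leukaemia, had 16.7 and 18.2 eRPKM in siCtrl and 4.23 and 4.12 eRPKM in siRAD21 cells. Its standard error of 0.26 was the widest of these 4 genes, at a log2 fold change of -1.94. SFRP1, a secreted antagonist of Wnt signals, went from 14.1 and 13.6 eRPKM to 4.15 and 4.83 eRPKM.

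The other large falls were NXT2, RNF150, DESI2, VMA21 and ETNK2. NXT2, a cofactor of mRNA export, had 13.1 and 15.1 eRPKM in siCtrl and 1.94 and 2.11 eRPKM in siRAD21 cells, 5.76-fold lower (log2 fold change -2.53, SE 0.12, limma, adjusted p = 1.45e-08). DESI2, a deSUMOylating peptidase, had 55.8 and 55.7 eRPKM in siCtrl and 15.2 and 16.3 eRPKM in siRAD21 cells, 3.46-fold lower (SE 0.06, limma, adjusted p = 1.87e-10). VMA21, an assembly factor of the vacuolar proton pump, went from 32 and 35.5 eRPKM to 9.55 and 10.1 eRPKM. RNF150, a RING finger protein, went from 10.1 and 10.9 eRPKM to 2.25 and 2.26 eRPKM, and ETNK2, an ethanolamine kinase, from 17.3 and 16.9 eRPKM to 5.71 and 5.61 eRPKM. In each of these genes both siRAD21 libraries lay below both siCtrl libraries, which the choice of the largest falls required. The remaining gene by size, MIR1539, had 4 and 3 reads in siCtrl and 0 in siRAD21 cells, which is too few for a fold change.

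Many of the genes that fell shared short words in their 3′UTRs, the part of an mRNA after the stop codon. By background knowledge, microRNAs find their targets by pairing of their seed, the bases near their 5′ end, with 3′UTRs, and an siRNA can lower unintended mRNAs in the same way. All words of 7 letters present in at least 100 of the 12222 annotated 3′UTRs of tested genes were ranked by the mean log2 fold change of the genes that hold them, after removing its relation to the length of the 3′UTR and multiplying by the square root of the number of genes. The ranking used the OHT libraries, which share no library with the comparison at 24 h without OHT. Of 16154 words, the lowest was GAATCTA. The lowest word that was no shifted copy of it was GTGATTA, at rank 4, and AGTGATT, the same word shifted by 1 letter, was at rank 5, so that their sites overlap. The highest was GCATGTT. Without OHT, the rank from the bottom was 1 for GAATCTA, 3 for GTGATTA and 4 for AGTGATT, and GCATGTT again ranked highest. The words are written in DNA letters on the strand of the mRNA. RAD21 mRNA holds the first 3 words and not GCATGTT, and its own 3′UTR holds GAATCTA at 1 place. The comparison of siCtrl OHT with siCtrl cells at 48 h, where both groups received the same siRNA, put GAATCTA at rank 5008 from the bottom and GCATGTT at rank 5505 from the top.

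The following sites in 3′UTRs are shown because they belong to called genes with large differences or known roles, and because they show the words in their surroundings. They were read from the GENCODE annotation of GRCh37, the build of the deposited values, and run 5′ to 3′ on the strand of the gene, with the word in capitals.
DESI2, chr1:244870033-244870057, plus strand: tgaaaactaGAATCTAatgtctacc
VMA21, chrX:150577194-150577218, plus strand: ggactttggGAATCTAatgataaat
RNF150, chr4:141788796-141788820, minus strand: tttcattaaGAATCTAagttcttct
SKP2, chr5:36182850-36182874, plus strand: gtgtttccaGAATCTAaattagatg
NXT2, chrX:108787076-108787100, plus strand: ccccaaataAGTGATTttttcccag
ETNK2, chr1:204100233-204100257, minus strand: ggcccagaaAGTGATTcatttgtaa
INSIG1, chr7:155100469-155100493, plus strand: aaaagcagcAGTGATTatagagagg
LUM, chr12:91497359-91497383, minus strand: tgattatttGCATGTTatgtttaat
NAP1L3, chrX:92926517-92926541, minus strand: ttatctaaaGCATGTTagtttggtg
TMEM255A, chrX:119392775-119392799, minus strand: atacaaagtGCATGTTaccttagaa
The first 7 genes were called lower and the last 3 higher. Only sites whose word went in the direction of the gene were picked for display. ZBED2 and SCEL, called higher, also hold GAATCTA, and RNF150, called lower, also holds GCATGTT. Of the 2370 mature human microRNAs in the RefSeq table, 2 have a seed (bases 2 to 8) that pairs with a word over its whole length.
hsa-miR-376a-5p, pairing with GAATCTA: gUAGAUUCuccuucuaugagua
hsa-miR-34b-3p, pairing with AGTGATT: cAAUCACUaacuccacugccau
Capitals mark the seed. The host entry of the first, MIR376A1, was at 0 in the 4 libraries, and MIR34B was at 0 in 3 of them; these entries are hairpin genes, and mature microRNAs are too short for this kind of library.

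Genes with GAATCTA in the 3′UTR were called lower at 8.84%, 113 of 1279 genes, against 2.16% of the 10943 genes without it. With 1 site the share was 8.48% and with 2 or more sites 11.3%. Their share of calls in the other direction was 4.46%, against 6.14% without the word. Median log2 fold changes differed little, -0.065 with the word and 0.003 without it, and the difference lay mostly in the lower tail. Longer 3′UTRs hold more words, and genes with GAATCTA had a median 3′UTR of 3788 bases against 1667. Among 3′UTRs of 2000 to 4999 bases the shares called lower were 8.29% with the word and 2.95% without.

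GTGATTA and AGTGATT had smaller values of the same kind. With GTGATTA 5.84% of genes were called lower, against 2.45% without, and with AGTGATT 5.59% against 2.15%. GCATGTT went the other way: 11.1% of the 1799 genes that hold it were called higher, against 5.08% of the genes without it, and the share was 17.5% with 2 or more sites. In 3′UTRs of 2000 to 4999 bases 10.7% of genes with GCATGTT and 5.21% without it were called higher. Among the genes called lower, 223 of 349 with a 3′UTR (63.9%) held at least 1 of the first 3 words, against 30.4% of the genes not called. Of the 729 genes called higher with a 3′UTR 27.4% held GCATGTT, against 13.9% of the genes not called. DRD1, ACKR3, SNAI2 and MN1, among the largest falls, hold none of the 4 words, and 119 of the genes called lower and 390 of those called higher hold none. Of the cohesin genes, CTCF (-0.39) holds GTGATTA and AGTGATT, and SMC1A (0.50) holds GCATGTT. STAG1 (0.13) and HDAC8 (-0.03) hold GAATCTA, STAG2 (0.08) holds GCATGTT, and MAU2 (0.33) holds none of the 4 words. The sequences of the siRNAs were not used here, and the part of either siRNA reagent in these differences was not tested.

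Among the largest rises were secreted proteins, non-coding RNAs and histone genes, many of them low in siCtrl cells. NPPB, the precursor of B-type natriuretic peptide, was measured at 2.62 and 2.82 eRPKM in siCtrl and at 16.4 and 16.1 eRPKM in siRAD21 cells, 5.21-fold higher (log2 fold change 2.38, SE 0.19, limma, adjusted p = 1.04e-06). LUM, the collagen-binding proteoglycan lumican, went from 2.72 and 2.5 eRPKM to 14.7 and 16.6 eRPKM, 5.18-fold higher (SE 0.15, limma, adjusted p = 1.46e-07). NAP1L3, a relative of histone chaperones, reached the highest level of the 12, from 7.22 and 8.72 eRPKM to 30.1 and 31.3 eRPKM. In all 12 genes both siRAD21 libraries lay above both siCtrl libraries, which the choice of the genes required.

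TMEM255A, a membrane protein, had 4.18 and 4.58 eRPKM in siCtrl and 15.9 and 16.1 eRPKM in siRAD21 cells, and with a standard error of 0.09 it was the most precisely measured of the 12. SCEL, a protein of the cornified envelope, went from 1.36 and 1.66 eRPKM to 5.97 and 7.2 eRPKM, and ZBED2, a zinc finger protein, from 1.99 and 2.36 eRPKM to 9.73 and 9.32 eRPKM. The non-coding RNAs ITGB2-AS1, LINC01405 and LINC00341 had log2 fold changes of 2.00, 1.78 and 1.77. ITGB2-AS1 shares 13.2% of its exonic bases with other genes, ITGB2 among them, and without strand these reads cannot be assigned. ITGB2, the integrin subunit of leukocytes, was itself called higher, from 1.22 and 1.52 eRPKM to 2.64 and 2.53 eRPKM. Of the 12 rises LUM, NAP1L3 and TMEM255A hold GCATGTT, and ZBED2 and SCEL hold GAATCTA.

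MYC was measured at 55.2 and 51.7 eRPKM in siCtrl and at 44.8 and 44.6 eRPKM in siRAD21 cells. Both siRAD21 libraries were lower, by 1.19-fold, and the difference passed the adjusted p but not the fold threshold (log2 fold change -0.25, SE 0.07, limma, adjusted p = 0.0146). The table holds a single MYC value, so reads of endogenous MYC and of the MycER transgene cannot be told apart. In the Myc network, 1 of 11 tested genes was called higher (9.09%, against 5.83% of all genes) and none lower. The called gene was MXD4, a repressor that competes with Myc for its partner MAX. MXD4 rose from 8.69 and 8.01 eRPKM to 17.8 and 17.5 eRPKM, 2.05-fold (SE 0.08, limma, adjusted p = 4.72e-07).

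Genes of the nucleolus and other genes that Myc is known to activate, taken as 1 list, lay mostly below 0 by little. Of 48 tested, 1 had a log2 fold change above 0 and the median was -0.17. Called lower were 2 (4.17%, against 2.6% of all genes) and higher 1 (2.08%, against 5.83%). LYAR, a nucleolar protein of ribosome production, went from 35.4 and 31.6 eRPKM to 20.1 and 20.5 eRPKM. GRWD1, a chaperone of ribosomal protein RPL3, fell 1.45-fold. TFRC, the transferrin receptor and not a nucleolar gene, went against the rest of the list, from 35.2 and 37.6 eRPKM to 59.2 and 60 eRPKM. It was the 1 gene called higher, and its 3′UTR holds GCATGTT in 2 copies beside GTGATTA and AGTGATT. Mitochondrial ribosomal proteins had a median of -0.15, with 1 of 76 called lower (MRPL18, 1.32%, against 2.6% of all genes). Proteasome subunits had -0.10 and cytosolic ribosomal proteins -0.09, with none called. The siCtrl libraries themselves differed here: the cytosolic ribosomal proteins summed to 5476.0 and 4886.3 eRPKM in the siCtrl libraries and to 4913.3 and 4808.6 eRPKM in the siRAD21 libraries. Without siCtrl replicate 1 the medians were -0.01 for this list, -0.02 for the proteasome, -0.08 for the mitochondrial and -0.14 for the nucleolar list, and without siCtrl replicate 2 they were -0.17, -0.16, -0.23 and -0.23. MRPL18 lost its call under quantile normalization and without siCtrl replicate 1 or siRAD21 replicate 2. Genes near the upper limit of eRPKM are compressed, and RPL7 filled 75.6% of its read starts.

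At 24 h few genes of the cell cycle were called. None of 54 genes of DNA replication and none of 52 genes of G2 and mitosis were called, against 5.83% higher and 2.6% lower of all genes. Calls were rarer among strongly expressed genes, at 1.73% higher and 2.44% lower for 20 to 50 eRPKM. From 50 eRPKM the shares were 0.435% and 0.87%, so few calls say little about lists of such genes. The medians of the 2 lists were -0.06 and -0.08. These medians too moved with the siCtrl library left out, to -0.03 and -0.04 without replicate 1 and to -0.10 and -0.12 without replicate 2. FEN1, the flap endonuclease of lagging-strand synthesis, had 92.4 and 83.5 eRPKM in siCtrl and 85 and 83.7 eRPKM in siRAD21 cells. MCM7, a subunit of the replicative helicase, had 80.1 and 71 against 77.2 and 75.3 eRPKM, and TOP2A, the topoisomerase of mitotic chromosomes, 83.9 and 81.5 against 79.4 and 80.8 eRPKM. The libraries of the groups overlapped for FEN1 and MCM7, and for TOP2A they were narrowly apart. At 48 h 36 of the 54 replication genes were called lower, against 11.2% of all genes, with a median of -0.62. For 35 the difference between 48 and 24 h was itself called lower, against 6.86% of all genes.

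Among 27 regulators of G1 and S phase, 1 was called lower and 1 higher, each 3.7%, against 2.6% and 5.83% of all genes. SKP2, the ubiquitin ligase subunit that removes the inhibitor p27, was measured at 58 and 57.8 eRPKM in siCtrl and at 32.5 and 33.9 eRPKM in siRAD21 cells, 1.73-fold lower (log2 fold change -0.79, SE 0.05, limma, adjusted p = 1.66e-07). It fell further by 48 h, to a log2 fold change of -1.79, and its 3′UTR holds 2 copies of GAATCTA and at least 1 of each other word. CDKN2D, the CDK inhibitor p19, went from 7.77 and 6.37 eRPKM to 12 and 9.97 eRPKM. Of 26 genes of homologous recombination RAD51D was called higher (3.85%, against 5.83% of all genes), from 11.2 and 10.9 to 16.3 and 16.3 eRPKM. At 48 h 20 of the 26 were called lower, against 11.2% of all genes.

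Of the lists, which were written with earlier results of these data known, that of p53 targets had the most genes called higher. Of 33 tested genes 28 were above 0 and 9 were called higher (27.3%, against 5.83% of all genes), with none called lower and a median of 0.30. TP53INP1, which promotes p53-dependent arrest and death, had 3.82 and 5.08 eRPKM in siCtrl and 14.6 and 14.8 eRPKM in siRAD21 cells, 3.11-fold higher (log2 fold change 1.63, SE 0.09, limma, adjusted p = 5.83e-08). GDF15, a stress cytokine, went from 6.55 and 4.8 eRPKM to 10.8 and 10.2 eRPKM, and BBC3, the death-promoting BCL2 family member PUMA, from 17.4 and 14.7 eRPKM to 29.7 and 26 eRPKM. ACER2, a Golgi ceramidase, and PLK3, a stress-responsive kinase, rose 1.89-fold and 1.59-fold. The list median stayed between 0.26 and 0.31 when any library was left out, and among its 26 genes without any of the 4 words 7 were called higher. BBC3 was the 1 called gene of 18 in the BCL2 family (5.56%, near the 5.83% of all genes called higher).

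Of 17 tested targets of NF-kB 7 were called higher (41.2%, against 5.83% of all genes) and none lower, with a median of 0.30, and of the 12 without any of the 4 words 5 were called higher. This list too was written with earlier results of these data known, and its shares hold for the listed genes only. TNFAIP6, which is outside the list, was called lower, at a log2 fold change of -2.83. CXCL8, the chemokine interleukin 8, went from 3.54 and 4.26 eRPKM to 8.05 and 9.11 eRPKM, 2.07-fold. CCL2, a monocyte chemokine, went from 18.2 and 15.7 eRPKM to 28.6 and 30.6 eRPKM, and BIRC3, an inhibitor of apoptosis induced by NF-kB, from 7.05 and 8.25 eRPKM to 14.3 and 16 eRPKM. TNFAIP2 and TNFAIP3, the latter a feedback inhibitor of NF-kB, had log2 fold changes of 0.91 and 0.74. In this list 7 of 24 members were below 1 eRPKM in all 4 libraries. Of 27 interferon-stimulated genes 4 were called higher (14.8%, against 5.83% of all genes and 10.5% of genes of 1 to 5 eRPKM) and 1 lower (3.7%, near the 2.6% of all genes). SAMD9L, an antiviral protein, went from 5.79 and 6.78 eRPKM to 10.8 and 11.8 eRPKM, IFIT3 rose 1.55-fold and DDX58, the RNA sensor RIG-I, 1.5-fold. OASL was called lower, from 1.8 and 1.82 eRPKM to 0.662 and 1.14 eRPKM, on 17 and 30 reads in siRAD21 cells, and lost its call without siCtrl replicate 1, siCtrl replicate 2 or siRAD21 replicate 1 and with the siRAD21 pair as 1 library.

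Among 46 genes of the extracellular matrix 6 were called higher (13%, against 5.83% of all genes and 10.5% of genes of 1 to 5 eRPKM) and 1 lower (2.17%, against 2.6%), with a median of 0.17. Besides LUM these included COL8A1, a short-chain collagen, from 7.79 and 8.4 eRPKM to 16.9 and 17.4 eRPKM, and COL13A1, a transmembrane collagen, from 5.7 and 5.42 eRPKM to 10.7 and 10.5 eRPKM. LAMA5 and THBS3 rose 1.53-fold and 1.52-fold. Of 33 genes that remodel matrix 5 were called higher (15.2%) and 1 lower (3.03%), against 5.83% and 2.6% of all genes. Among those higher were MMP15, a membrane metalloproteinase (1.74-fold), PLAT, tissue plasminogen activator, from 22.2 and 22.9 eRPKM to 37.1 and 36.4 eRPKM, and LOX, which crosslinks collagen (1.57-fold). Of 15 integrins ITGB2, ITGA7 and ITGB4 were called higher (20%, against 5.83% of all genes and 10.5% of genes of 1 to 5 eRPKM). None was called lower, against 2.6% of all genes. ITGB4 lay near the thresholds, at 1.13 and 1.03 against 2.13 and 1.76 eRPKM, and lost its call under 8 of the alternatives.

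Signals of the TGF-beta family moved in both directions, with 4 genes called higher (12.1%, against 5.83% of all genes) and 5 lower (15.2%, against 2.6%) of 33 and a median of -0.02, or of -0.19 over the 19 members without any of the 4 words. INHBA, the subunit of activin A, fell from 33.3 and 35.5 eRPKM to 18.3 and 17.3 eRPKM, while FST, which binds and blocks activin, rose from 26.6 and 25.4 eRPKM to 51.4 and 51.8 eRPKM. BMP4 and its receptor BMPR2 rose 1.88-fold and 1.79-fold, and TGFB3 fell 1.65-fold. Of 28 immediate-early genes and feedback regulators of ERK, 4 were called lower (14.3%, against 2.6% of all genes) and 2 higher (7.14%, near the 5.83% of all genes). PHLDA1 fell from 8.86 and 9.39 eRPKM to 4.42 and 4.83 eRPKM, and FOSL2 and KLF10 fell 1.48-fold and 1.47-fold. KLF2, a transcription factor best known from endothelium, rose from 2.16 and 1.67 eRPKM to 6.6 and 5.53 eRPKM.

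In the YAP and TAZ list the 2 coactivators went apart: YAP1 rose from 20.6 and 21.7 eRPKM to 31.5 and 31.5 eRPKM, and WWTR1, which encodes TAZ, fell from 8 and 9.08 eRPKM to 4.8 and 5.02 eRPKM. F3, tissue factor, fell 1.78-fold and AMOTL1, which binds YAP, rose 1.53-fold. PHLDA1, FOSL2, KLF10 and INHBA hold AGTGATT, and YAP1, AMOTL1, BMPR2 and KLF2 hold GCATGTT, in 2, 4, 2 and 1 copies. Word and direction did not always go together: FOSL2, called lower, holds GCATGTT too, and NDRG1, ITGA7, BIRC3, CXCL8 and TP53INP1, called higher, hold AGTGATT. TFRC, called higher, holds both AGTGATT and GCATGTT, the latter in 2 copies.

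Among clusters of genes whose promoter choice is known to depend on CTCF and cohesin, 5 of 21 tested protocadherins were called higher (23.8%) and 1 lower (4.76%). The shares were 5.83% and 2.6% over all genes, and 10.5% and 2.42% among genes of 1 to 5 eRPKM. PCDHB2 went from 3.79 and 3.32 eRPKM to 12.9 and 12.2 eRPKM, 3.23-fold higher (SE 0.15, limma, adjusted p = 2.81e-06). PCDHA12 went from 1.67 and 2.39 eRPKM to 6.41 and 6.18 eRPKM, and PCDHA4 and PCDHB6 rose 1.89-fold and 1.83-fold. PCDHB2 shares 43.8% of its exonic bases with PCDHB1-AS1 on the other strand. Members of the PCDHA group share 3′ exons, so 63.7% of the exonic bases of PCDHA12 belong to other genes too. Reads of this group are uncertain, and calls within it are not separate. Of 52 protocadherins 26 were below 1 eRPKM in all 4 libraries. Of 28 tested HOX genes HOXA3, HOXA4 and HOXA5 were called higher (10.7%, against 5.83% of all genes) and HOXC13 lower (3.57%, near the 2.6% of all genes). HOXA5 went from 2.98 and 2.95 eRPKM to 4.8 and 5.5 eRPKM and HOXC13 from 13.5 and 13 eRPKM to 8.85 and 8.21 eRPKM, whereas HOXA3 had 24 and 17 reads in siCtrl and 60 and 74 in siRAD21 cells. Of 47 replication-dependent histone genes 4 were called higher (8.51%, near the 5.83% of all genes), HIST1H2BB at 5.94 and 4.39 against 20.4 and 18.6 eRPKM in the lead, while the median of the list was -0.03, which turned above 0 under quantile normalization and, at 0.05, without siCtrl replicate 1. These histone genes are near-identical copies, so their reads can be split between them.

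In the lists of metabolism and stress few genes were called. Of 24 genes of cholesterol synthesis and its control, 2 were called lower (8.33%, against 2.6% of all genes). INSIG1, which holds back the activator of this pathway, fell from 28.7 and 28.9 eRPKM to 11.8 and 11.1 eRPKM, 2.45-fold (log2 fold change -1.29, SE 0.06, limma, adjusted p = 1.41e-08), and MSMO1, a demethylating enzyme of the pathway, 1.54-fold. Both hold GTGATTA, INSIG1 in 2 copies. IRS1, the adaptor of the insulin and IGF receptors, fell from 26.9 and 28.2 eRPKM to 17.1 and 16 eRPKM and holds GTGATTA too. Of 31 genes of hypoxia and glycolysis NDRG1 was called higher (3.23%, against 5.83% of all genes) and BNIP3L and PDK1 lower (6.45%, against 2.6%). Of 31 genes of the ATF4 and unfolded protein response DDIT4 was called higher (3.23%), from 50.4 and 46.9 eRPKM to 73.7 and 71.2 eRPKM. No osteoblast marker was called. KRT5, a keratin of basal epithelium, was called among the markers of other cell types, from 1.11 and 1.29 eRPKM to 2.6 and 2.88 eRPKM, and those 17 markers summed to 37.4 and 33.5 eRPKM in siCtrl and to 39.4 and 39.9 eRPKM in siRAD21 cells.

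**Figure D2:**
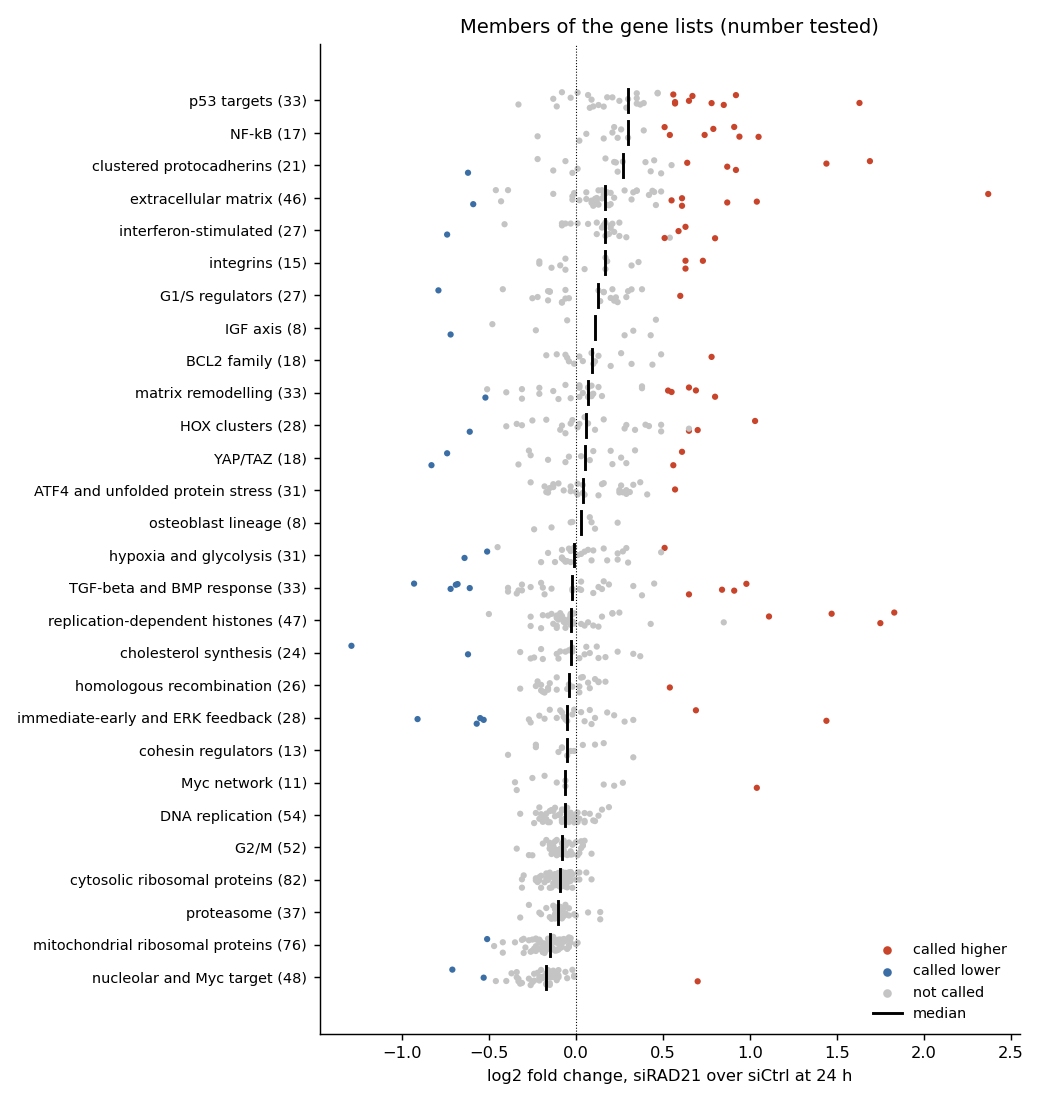
The log2 fold change at 24 h of every tested member of the gene lists, with the number tested beside each name. The 3 lists with the fewest tested genes are left out: cohesin ring, RAD21 neighbours and markers of other cell types (5, 4 and 6 tested). Red points were called higher, blue points lower, grey points neither, and black bars are list medians. The p53 and NF-kB lists have the highest medians (0.30) and the nucleolar list the lowest (-0.17). The lists of DNA replication and G2/M hold no called gene, as do those of cohesin regulators, osteoblast markers, cytosolic ribosomal proteins and the proteasome.

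With MycER activated by OHT, the same siRNAs gave a similar picture in libraries of their own. There 970 genes were called (6.47%), 560 higher (3.74%) and 410 lower (2.73%). Of the 874 genes higher without OHT, 434 were also called higher with OHT, which is 49.7% of the first and 77.5% of the second list. Of the 390 lower genes, 262 were shared, 67.2% and 63.9% of the lists. None was called in the opposite direction, and 852 of the 874 higher and 386 of the 390 lower genes had the same sign. Across 10906 genes of at least 5 eRPKM the 2 sets of log2 fold changes correlated at r = 0.84 with a slope of 0.76, a description across genes, which are not independent replicates. RAD21 had 66.4 and 71 eRPKM in siCtrl OHT and 15.8 and 15.5 eRPKM in siRAD21 OHT cells.

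The difference between the effects without and with OHT was tested directly, and no gene passed (0.0% of 14993), while 906 had an unadjusted p below 0.05. Most other fits called 0 too. Those with every gene above 0, quantile normalization, a replicate block or voom called 5, 12, 4 and 19 genes, so the count of 0 is not firm. A p that misses the threshold does not show that the effects were equal. DRD1 had 2.31 and 2.27 eRPKM in siCtrl OHT cells, below its level without OHT, and 0.28 and 0.322 eRPKM in siRAD21 OHT cells, and the difference of its effects was 1.61 on the log2 scale (limma, adjusted p = 0.107). NXT2 and DESI2 had log2 fold changes of -2.66 and -1.73 with OHT, and the p53 and NF-kB medians were 0.37 and 0.28.

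At 48 h without OHT the effect of siRAD21 was wider. There 3559 genes were called (23.7%), 1883 higher (12.6%) and 1676 lower (11.2%), and RAD21 stood at 93.3, 96.9 and 89 eRPKM in siCtrl and at 11.2 and 11.3 eRPKM in siRAD21 cells. Of the genes called at 24 h, 660 of 874 higher (75.5%) and 314 of 390 lower (80.5%) were called in the same direction at 48 h, which is 35.1% and 18.7% of the lists at 48 h. Of the higher genes 12 were called lower at 48 h, and of the lower genes none was called higher. Median log2 fold changes of the same genes went from 0.70 to 0.86 and from -0.67 to -0.91.

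The 48 h minus 24 h difference was called for 1606 genes (10.7%), 577 higher (3.85%) and 1029 lower (6.86%). Among the genes higher at 24 h it was called in the same direction as the change for 164 and against it for 71, and among the lower genes for 93 and 14. SFRP1 and MN1 fell further, to log2 fold changes of -2.82 and -3.38 at 48 h, and DRD1 to -5.19, where its siCtrl level was 33.5, 32.1 and 25 eRPKM. NPPB, ZBED2 and SCEL rose further, to 3.19, 3.18 and 2.71. For several large falls the difference between the times was not called: DESI2 stood at -1.79 and -1.90 at 24 and 48 h, NXT2 at -2.53 and -2.86, VMA21 at -1.73 and -1.49 and ETNK2 at -1.52 and -1.20. These 4 hold a word in the 3′UTR, but SNAI2 (-2.14 and -2.20) and ACKR3 (-2.17 and -2.52) hold none and had no called difference either, and SFRP1, which fell further, holds AGTGATT.

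CCL2 rose at 24 h and was lower at 48 h. It was called higher at 24 h, and at 48 h it had 43.4, 45.3 and 37.7 eRPKM in siCtrl and 27.2 and 27.9 eRPKM in siRAD21 cells. The groups had changed places, and the difference between the times was -1.38 (limma, adjusted p = 1.23e-05). RTN4R, the receptor of the myelin protein Nogo, had a log2 fold change of 0.59 at 24 h and of -0.67 at 48 h. HIST1H1T went from 1.75 to -0.17, with 8 to 54 reads a library at 24 h. In the other direction, TMEM150A and SLC19A2, a thiamine transporter, were called lower at 24 h with -0.82 and -0.56 and stood at 0.11 and 0.29 at 48 h. The TMEM150A level in siCtrl cells was 7.32 and 6.97 eRPKM at 24 h and 4.15, 5.24 and 5.85 eRPKM at 48 h, while siRAD21 cells had 3.79 and 3.86 eRPKM and then 5.6 and 5.38 eRPKM, so that both groups moved between the times, siCtrl down and siRAD21 up.

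**Figure D3:**
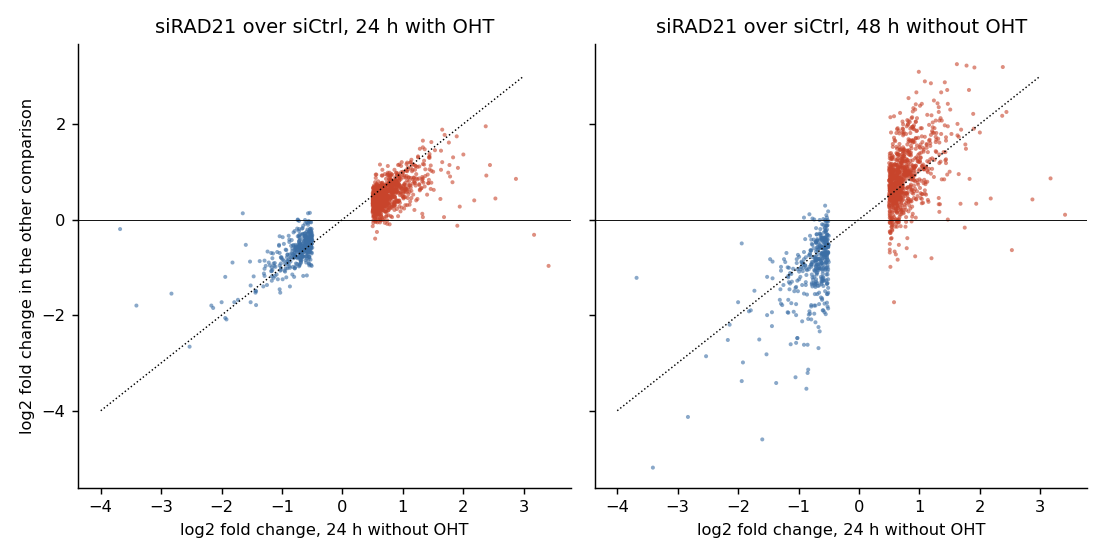
Genes called at 24 h without OHT, red higher and blue lower: their log2 fold change at 24 h (x axis) against that with OHT at 24 h (left, y axis) and at 48 h without OHT (right). The dotted line marks equal values; at left points lie mostly on the flat side of it (medians 0.70 and 0.52 for higher genes), at right they spread to larger changes in both directions (medians 0.86 and -0.91 at 48 h), and the genes were selected on the x axis.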

How the data were processed

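RNA-seq of 18 U2OS-MycER libraries was used. The authors removed ribosomal RNA, made TruSeq RNA v2 libraries, which do not mark strand, sequenced them on the HiSeq 2000 platform, trimmed or masked bases of low quality, aligned reads to hg19 (TopHat2 2.0.8 per the labels), removed PCR duplicates, counted with featureCounts 1.4.5 and deposited eRPKM, an RPKM over exons, for 23399 genes. Their own differential expression, by DESeq2, was not used here. Groups came from the labels. The 14993 genes with a mean of at least 1 eRPKM were fitted as log2(eRPKM + 0.5) with limma 3.58.1 in R 4.3.3, with a mean for each of 8 groups, a variance trend and no covariates, and p-values were adjusted by the Benjamini-Hochberg procedure over all tested genes. Thresholds were an adjusted p of 0.05 and a log2 fold change of 0.5. The procedure was also run on simulated reads with the same dispersion for every gene. That run does not show how the calls behave at the spread of the real libraries. Whole reads were recovered from the eRPKM values for 21568 genes, within 0.02 reads, giving depths of 9647501 to 12678599 reads; a limma voom fit on these reads called 1503 genes. Depth limits genes of a few eRPKM most. Replicates are described by the study as biological; where cultures were not separate, p-values measure technical spread.

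Named were RAD21, MYC, the 12 largest rises and falls (at least 5 eRPKM in 1 group, libraries not overlapping), up to 5 called members of each of 31 hand-written lists (the 2 highest if none was called), and the 5 largest 48 h minus 24 h differences against the 24 h direction each way. A few further genes are mentioned only to show the limit of a count or list. Lists and members were chosen with earlier results of these data known. Gene positions, exons and the longest 3′UTR of each gene came from GENCODE v44 on GRCh37 by symbol (21154 genes). Alternatives were other pseudocounts, filters, scalings, fits and left-out libraries; voom, duplicates put back, the siRAD21 pair as 1 library and lists without word-holding genes were added after seeing the data. Figures used Python 3.11.15 and matplotlib 3.10.9.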

Additional observations from a re-analysis of the deposited data

Results flagged for a closer look

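For 10 genes the effect of siRAD21 at 48 h differed from that at 24 h by a test of the difference itself, against the direction at 24 h; they are the 5 largest such differences in each direction among called genes of at least 5 eRPKM in 1 group, of which 50 of 837 had one. On the log2 scale the 48 h minus 24 h difference was -2.02 for CCL24, an eosinophil chemokine, -1.92 for HIST1H1T, -1.38 for CCL2, -1.26 for RTN4R and -1.20 for SPSB4, all of which were higher in siRAD21 cells at 24 h. CCL24 had 7.2 and 6.78 eRPKM in siCtrl and 16.1 and 17.4 eRPKM in siRAD21 cells at 24 h, and 10.3, 7.39 and 15 eRPKM against 6.12 and 5.38 eRPKM at 48 h. The fitted difference was 2.46 for MIR1539, but with 4 and 3 reads in the siCtrl and 0 in the siRAD21 libraries at 24 h it is set by the pseudocount and is no measure of size. The difference was 0.93 for TMEM150A, 0.85 for SLC19A2, 0.63 for MBNL2 and 0.59 for ZNF234, all lower at 24 h. SLC19A2 and ZNF234 hold GAATCTA and MBNL2 holds GTGATTA in the 3′UTR.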

How the results depend on the processing

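RAD21 was called in all 17 fits, with log2 fold changes of -2.20 to -1.89. The count of called genes at 24 h was 740 with a mean of at least 5 eRPKM, 3870 without the fold threshold and 218 past a log2 fold change of 1, and otherwise stayed within 1.5 times of 1264 (1105 to 1311 without any 1 library, 1067 with the siRAD21 pair as 1 library). With a mean of at least 5 eRPKM fewer genes were tested, and 610 were called with OHT and 2289 at 48 h. The interaction had 0 calls in the main fit and most others, but 5 with every gene above 0, 12 with quantile normalization, 4 with a replicate block and 19 with voom. The cause was not tested. The replicate block gave 1292 genes at 24 h and changed no call of a named gene. Deviations of same-numbered siCtrl and siRAD21 libraries correlated at 0.284, with 2 pairs, so the numbers were not taken to pair the libraries. Of 97 named called genes, 85 to 90 stayed called without any 1 library and 92 with quantile normalization. Calls were lost by GRWD1, LAMA5, ADAMTS12, ITGB4, NR4A1, OASL, DDX58, SAMD9, PCDHAC2, HIST1H2BE, MRPL18 and SPSB4 without siCtrl replicate 1, by CDKN2D, PLAU, ITGB4, OASL, NDRG1, HOXA4, RTN4R, SLC19A2, MBNL2 and ZNF234 without siCtrl replicate 2, by CDKN2D, ITGB4, OASL, NDRG1, PCDHAC2, HOXA4, HIST1H2BE, SPSB4 and MBNL2 without siRAD21 replicate 1, and by LAMA5, ITGB4, SAMD9, PDK1, HOXA5, MRPL18 and CCL24 without siRAD21 replicate 2. Of 31 list medians 9 moved by more than the replicate spread without siCtrl replicate 1 and 11 without siCtrl replicate 2. Without genes that hold a word 11 of 29 moved, and the Myc network median went from -0.06 to 0.19. The cholesterol list then held 0 calls and the YAP and TAZ list 0 called higher, while p53 targets kept 7 and NF-kB targets 5 called higher. Genes not called and close to 0 changed sign: MCM7 (-0.01) with median centring, SMC3 (0.03), ESCO2 (0.03), FEN1 (0.01), TOP2A (0.00) and RPLP0 (0.02) with quantile normalization, and without 1 library PDS5A (-0.01 to 0.09), HDAC8 (-0.10 to 0.03), PTTG1 (-0.16 to 0.00), FEN1 (-0.13 to 0.01), RPLP0 (-0.14 to 0.02), PSMC3 (-0.19 to 0.02), ESCO1 (-0.11 to 0.01), MCM7 (-0.07 to 0.10), COL1A1 (-0.02 to 0.19) and ESCO2 (-0.04 to 0.01).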
